A study of Caenorhabditis elegans with 24 samples.

Results

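Neurons sorted from cultured embryos of the nematode Caenorhabditis elegans were compared with all viable cells of such cultures. The comparison rested on 7 of the 24 arrays of the series, chosen by their labels: 3 Embryonic Pan-neural arrays against 4 Embryonic Reference arrays. The neurons came from transgenic line NW1229 (evIs111), which carries F25B3.3::GFP, a green fluorescent protein reporter under the F25B3.3 promoter that lights up nearly the whole nervous system. Eggs were freed by bleaching gravid adults, stripped of their shells and dissociated, the cells differentiated on coated dishes for a day, and the fluorescent cells were collected by flow cytometry. The reference was total RNA of all living cells in culture, profiled earlier, so it also held neurons, and its strain is given only as wild type, a word the labels also use for the neurons of the reporter line. No age or treatment set the groups apart in the labels, and RNA of both groups went through a pair of amplification rounds before it was hybridized to an Affymetrix C. elegans array. Because both groups were cultured cells, gut, skin and muscle tissue as such were not sampled, and all sorted neurons came from that single reporter line.

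A worm neuron is born from dividing embryonic blast cells, leaves the cell cycle, and then builds an axon, synapses and, in sensory cells, a cilium. Its neighbours in culture include skin cells that secrete cuticle, muscle cells that build filaments and basement membrane, gut-lineage cells and cells that still divide. A gene is higher in sorted neurons when neurons hold more of its transcript than the average cultured cell, and a ratio between bulk samples cannot tell fewer cells of a type from less RNA per cell.

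The files held 22548 probe sets without the array's control probes, of which 20766 could be given to a single gene. Values are log2 of the normalized intensity, and a change is the pan-neural mean minus the reference mean on that scale. Each of 17118 genes was read from its brightest probe set, and a gene was called at an adjusted p under 0.01 with at least a 1.5-fold change. Changes are given with the standard error of the fit (SE) over the 3 and 4 arrays. In all, 819 genes were called: 351 higher in neurons, which is 2.05% of the genes tested, and 468 lower, which is 2.73%. Among the called genes, 45 were at least 4-fold higher and 133 at least 4-fold lower. All 819 had groups that did not overlap, as had 29.4% of all genes. The median change over all genes was 0.0523, 56.7% of genes lay above 0, and 31.1% had an unadjusted p under 0.05. Counts of members above 0, or at that unadjusted p, are descriptions beside these shares, and no list was tested as a set.

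Arrays of a group were alike, with squared correlations from 0.918 to 0.975 among pan-neural arrays and from 0.943 to 0.971 among reference arrays, against 0.785 to 0.92 between groups. Pan-neural array 3 lay farthest from the reference and reference array 1 lay closest to the neurons. The groups were hybridized on separate days and on chips of separate lots, which therefore cannot be told apart from the comparison itself. Calls rested on nearly all arrays: without pan-neural array 1 the counts were 14 higher and 64 lower, and without reference array 2 they were 28 and 97. With hybridization day as a random block they were 90 higher and 162 lower. Of 172 called genes named here, 148 lost the call without at least 1 array, 94 lost it with the day block, 40 lost it when read from the gene's dimmest probe set, where 6 more turned sign, and 18 kept it in all 17 alternatives. Those 18 are marked below as having held in every alternative. An adjusted p under 0.05 and no minimum fold change loosen the rule and could not remove a call. For a gene with 1 probe set, the dimmest probe set repeats the main reading. The labels call the arrays of a group biological replicates and do not say whether each came from its own culture, so p-values measure the spread between these samples.

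Lists of marker genes described what was in the tubes, and the counts below stand beside 2.05% of all genes called higher and 2.73% called lower. Of 22 measured neuronal markers 21 lay above 0, but only 3 were called, aex-3, ric-4 and ric-19, and their summed linear intensity ran from 18267 to 21749.7 in neurons and from 7891 to 13923 in the reference. Hypodermal markers summed to between 2470.4 and 4542 in neurons and between 11290.1 and 15084 in the reference, with 4 of 20 lower. Body wall muscle markers summed to between 1824 and 2569 against 4919 to 7693, with 7 of 18 lower. Coelomocyte and glial markers summed to between 816 and 970.5 against 1468 to 1654, with 3 of 13 lower. Pharyngeal markers summed to between 1221 and 1418 against 1440.4 to 1867, with no member called. Sums of intestinal markers overlapped between groups (1261 to 1538 against 1376 to 2549), and 1 of 17 was called higher in neurons. Sums of germline markers overlapped too (1164 to 1512 against 1464 to 1827), and 2 of 19, glh-1 and deps-1, were lower. What part these other cells had in any single gene's change was not tested. The reporter's own gene, rgef-1, stood at 3.98, 3.85 and 4.02 in neurons and 3.85, 3.78, 3.63 and 3.73 in the reference, an overlap near the array's floor that leaves the sort unchecked by it.

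The highest rise belonged to dpy-20, a gene of body shape and cuticle. It read 9.47, 10.04 and 8.82 in neurons and 4.58, 5.29, 5.40 and 5.24 in the reference, a 19.9-fold difference (log2 change 4.31 ± 0.31, SE) with adjusted p = 0.000767. Its neighbour ZK792.7, whose annotated span overlaps that of dpy-20 by a short stretch on chromosome IV, read 12.17, 12.28 and 11.94 against 8.37, 8.07, 8.20 and 7.84, a 16.1-fold difference (log2 change 4.01 ± 0.15, SE) with adjusted p = 9.64e-05. Both groups of values were far apart in both genes, and both calls held in every alternative that was run. The next gene on either side was not called: let-60, the Ras gene, had a change of 0.52 (adjusted p = 0.126) and T22B3.3 one of 0.28 (adjusted p = 0.265). Over the 12 neighbouring genes plotted in chromosome order, the other 10 lay between -0.53 and 0.52, and none was called. In larval neurons, taken from animals with a different transgene, dpy-20 had a change of -0.14, which was not called, and ZK792.7 rose by 0.82. A wild-type dpy-20 copy is widely used as a marker when transgenic worms are made, but the sources used here do not say what evIs111 carries beside the reporter, and its part in these values was not tested.

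**Figure D1:**
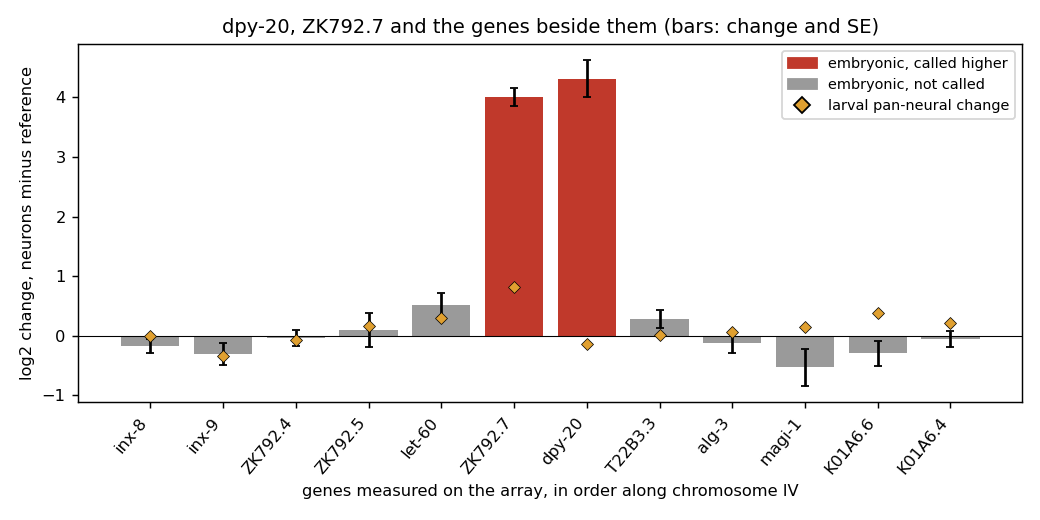
Bars give the log2 change (pan-neural minus reference) of 12 genes in their order along chromosome IV, with the standard error of the fit, and diamonds give the change of the same genes in larval neurons. The bars of ZK792.7 and dpy-20 reach 4.01 and 4.31 while every neighbour stays between -0.53 and 0.52.

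Several other strong rises covered a range of roles. Transcripts of tdc-1, the tyrosine decarboxylase that makes tyramine, read 9.42, 8.50 and 9.42 in neurons and 6.26, 5.88, 5.63 and 5.88 in the reference, 9.19-fold apart. Those of pdl-1, which encodes a carrier of lipid-modified proteins of the phosphodiesterase delta family, read 9.10, 8.82 and 8.89 against 6.96, 6.21, 6.21 and 5.95, 6.08-fold apart. Each pan-neural array was above each reference array by a wide gap in both genes, but the dimmest probe set of tdc-1 gave a change of 0.43 with no call. Rises were also seen for mihp-2 (6.41-fold) and spex-2 (5.37-fold), and adjusted p ran from 0.000944 for tdc-1 to 0.00349 for spex-2 among these genes.

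Few genes of the signalling lists passed the test. Outside those lists, the G protein gamma subunit gene gpc-1 read 8.22, 8.04 and 7.39 in neurons and 4.39, 4.15, 4.52 and 3.75 in the reference (12.8-fold, adjusted p = 0.000679), a rise that held in every alternative. JNK, a mitogen-activated kinase of stress and axonal transport in worms, is switched on by the kinase JKK-1. The kinase gene jnk-1 read 10.41, 10.27 and 10.48 in neurons and 8.52, 8.34, 7.83 and 7.69 in the reference, a 4.9-fold rise (log2 change 2.29 ± 0.21, SE) with adjusted p = 0.00149. Its activator jkk-1 read 7.88, 8.18 and 7.96 against 6.90, 6.80, 6.13 and 6.56, a 2.65-fold rise (log2 change 1.40 ± 0.19, SE) with adjusted p = 0.00466. In both genes the gap between the groups was wider than the range within either group, but the dimmest probe set of jnk-1 gave 0.76 with no call. These were the only calls among 22 stress kinase genes, whose median change was -0.083, and their relatives mek-1 and sek-3 had changes of -0.05 and -0.08 without a call.

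Second messenger enzymes gave 2 rises among 39 measured, and 28 of them lay above 0. A conventional protein kinase C, pkc-2, read 8.87, 8.74 and 8.67 in neurons against 7.52, 6.52, 6.09 and 6.95 in the reference, a 3.97-fold rise (log2 change 1.99 ± 0.31, SE) with adjusted p = 0.00667. The phospholipase C beta gene egl-8, which makes the diacylglycerol that such kinases bind, read 7.85, 7.99 and 7.78 against 6.99, 6.84, 6.33 and 6.72, a 2.22-fold rise (log2 change 1.15 ± 0.17, SE) with adjusted p = 0.00525. The pan-neural arrays were nearly equal to each other in both genes, while the reference arrays spread over more than a log2 unit in pkc-2. Neither call held in the dimmest probe set, which gave changes of 0.12 for pkc-2 and 0.14 for egl-8. The receptor tyrosine kinase gene scd-2, the worm anaplastic lymphoma kinase, read 10.27, 9.90 and 10.05 against 8.65, 8.25, 7.72 and 7.87, a 3.86-fold rise (log2 change 1.95 ± 0.23, SE) with adjusted p = 0.00286, and it was the single call among 29 receptor kinases and tyrosine phosphatases. Its dimmest probe set gave 0.72 with no call.

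In the Ras-ERK list 2 of 31 genes rose. The kinase scaffold gene ksr-1 rose 2.62-fold (adjusted p = 0.00951), from 8.81, 8.96, 8.06 and 9.07 in the reference to 10.20, 10.16 and 9.99 in neurons. Its dimmest probe set gave 0.50 with no call. The receptor-sorting PDZ gene lin-10 rose 2.06-fold (adjusted p = 0.00782), but its dimmest probe set gave -0.16 with no call. Of the 29 kinases and partners of the phosphoinositide 3-kinase, TOR and AMPK pathways 20 lay above 0, with a median of 0.36, and 1 was called, ragc-1, a GTPase that brings TOR complex 1 to the lysosome. It read 9.55, 9.44 and 9.61 in neurons and 8.71, 8.33, 8.61 and 8.32 in the reference (2.06-fold, log2 change 1.04 ± 0.13, adjusted p = 0.00353). The 14-3-3 gene par-5, at 0.65, missed the threshold narrowly with an adjusted p that rounds to 0.01. Another of its 3 probe sets was called higher.

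No gene was called by limma among 18 Notch pathway, 24 intracellular Wnt pathway or 33 Rab, Arf and Arl genes. Their median changes were -0.067, -0.14 and 0.19, and 4, 8 and 16 of their members had an unadjusted p under 0.05. Chosen after their values were seen, arl-3, a small GTPase of cilia, stood at 2.15 (adjusted p = 0.0109) and rab-3, the GTPase of synaptic vesicles, at 1.51 (adjusted p = 0.0197), both outside the threshold.

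**Figure D2:**
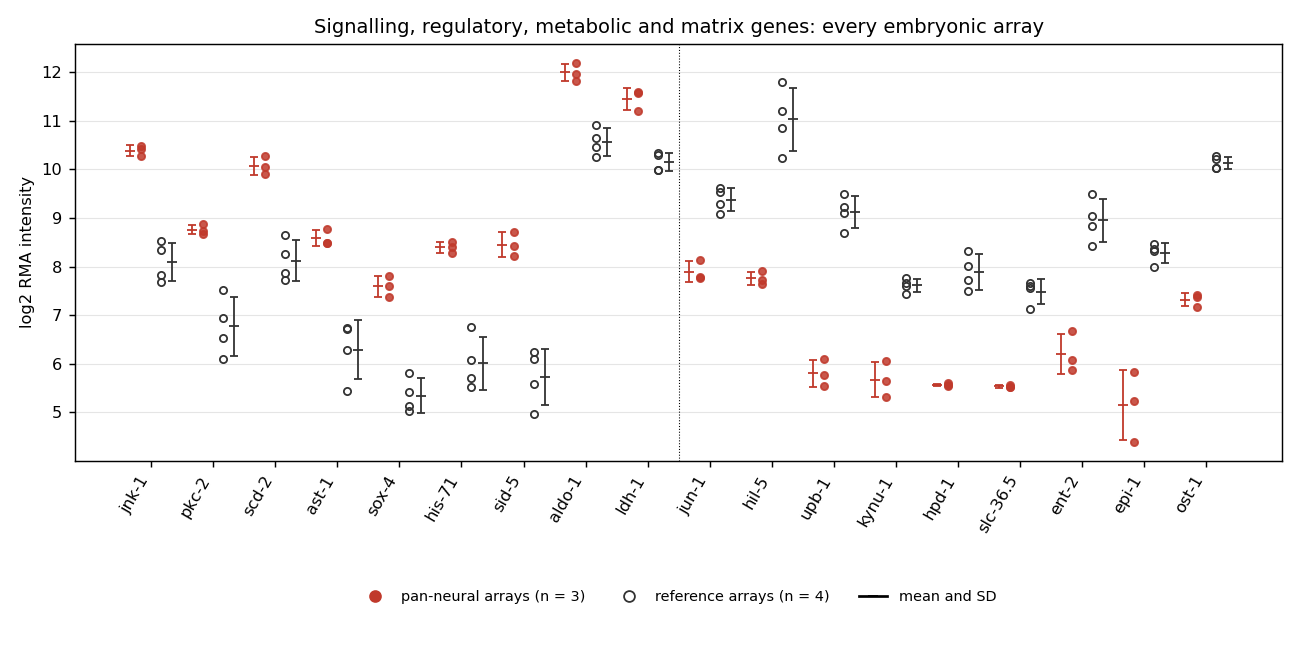
Log2 intensity of 18 genes on each of the 3 pan-neural arrays (filled) and 4 reference arrays (open), with the group mean and standard deviation beside the points. All 18 are called genes, and no called gene had overlapping groups. To the left of the dotted line every pan-neural array lies above every reference array, and to the right every one lies below.

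Glycolysis, which turns glucose into pyruvate, had 3 of 21 genes higher, 14.3% against 2.05% of all genes. Aldolase gene aldo-1 read 11.96, 12.19 and 11.82 in neurons and 10.91, 10.64, 10.45 and 10.24 in the reference, 2.7-fold higher with adjusted p = 0.0032. Lactate dehydrogenase gene ldh-1 read 11.57, 11.58 and 11.20 against 10.34, 9.98, 10.29 and 9.99, 2.46-fold higher with adjusted p = 0.0029, and phosphoglycerate kinase gene pgk-1 was 1.81-fold higher (adjusted p = 0.0066). Both aldo-1 and ldh-1 rose by more than the spread of either group. The near-identical glyceraldehyde phosphate dehydrogenase genes gpd-2 and gpd-3, whose probes may read each other, had changes of 0.73 and 0.84 and missed the threshold at adjusted p = 0.0133 and 0.0147. The opposite way went pck-2, a phosphoenolpyruvate carboxykinase that runs toward glucose, at 8.53, 8.47 and 8.04 in neurons against 9.25, 9.64, 9.70 and 9.83 in the reference (-1.26 ± 0.18, adjusted p = 0.00529). The median of the list was 0.069, and no member was called higher without pan-neural array 1, without pan-neural array 2 or without reference array 2.

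Mitochondrial pathways gave few calls. In the citric acid and glyoxylate cycles 1 of 31 genes fell, sdha-2, a flavoprotein subunit of succinate dehydrogenase, from 8.08, 9.26, 9.03 and 9.50 to 6.55, 6.88 and 6.73 (-2.25 ± 0.32, adjusted p = 0.00495). Of 71 genes of the respiratory chain and ATP synthase 0 were called by limma, with a median of 0.051 and 31 at an unadjusted p under 0.05. The same held for 19 subunits of the vacuolar proton pump (median 0.043, 6 at an unadjusted p under 0.05) and 13 trehalose and glycogen genes (median 0.019, 3 at that level). Superoxide dismutase gene sod-1 was the only call among 32 redox genes, 1.56-fold higher with adjusted p = 0.00947, and 27 of that list lay above 0.

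Several enzymes that break down amino acids fell. A list of 53 measured enzymes of amino acid and pyrimidine catabolism, drawn up after the values had been seen, held 10 that were lower, 18.9% against 2.73% of all genes, and 1 that was higher. Because the list followed the values, its count is a description only. The pyrimidine-degrading enzyme gene upb-1 read 5.76, 5.55 and 6.10 in neurons and 8.68, 9.11, 9.49 and 9.22 in the reference, a 9.99-fold difference (log2 change -3.32 ± 0.21, SE) with adjusted p = 0.000561 that held in every alternative. On the tyrosine route, hpd-1 fell from 7.72, 7.49, 8.01 and 8.33 to 5.60, 5.55 and 5.56 (4.99-fold, a call that held in every alternative) and tatn-1, tyrosine aminotransferase, fell 4.38-fold. On the tryptophan route, kynu-1, kynureninase, fell from 7.60, 7.66, 7.76 and 7.44 to 5.32, 5.65 and 6.05 (3.84-fold, which also held in every alternative), and tdo-2, the dioxygenase that opens the route, fell 2.48-fold. The lysine-degrading gene aass-1 fell 4.13-fold, the listed glutamine synthetase genes gln-3 and gln-5, whose enzymes make an amino acid, fell too (log2 changes -1.34 and -1.49), and alh-8 and argn-1 made up the rest, though the dimmest probe set of argn-1 gave -0.12 with no call. The one rise was nkat-3, at 0.85. Adjusted p over these calls ran from 0.000561 to 0.00975, and 4 to 10 of the falls were called when single arrays were left out, fewest without pan-neural array 1. Summed markers of hypodermis and muscle were lower in the same samples, as given above, and their part in these falls was not tested.

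Lipid enzymes also gave falls and no rise, where 2.73% of all genes were lower and 2.05% higher. In fatty acid activation and beta-oxidation 5 of 64 genes fell, 7.81%. Without pan-neural array 1 no fall was called in that list or in fatty acid synthesis. The acyl-CoA synthetase gene acs-16 read 6.96, 7.15 and 7.05 in neurons and 8.48, 9.04, 8.66 and 8.92 in the reference (-1.72 ± 0.15, adjusted p = 0.0013). Also lower were maoc-1, a peroxisomal hydratase (-1.88), the acyl-CoA dehydrogenases acdh-2 (-1.48) and acdh-7 (-1.37), and cpt-6, of the carnitine palmitoyl transferases (-0.97). Fatty acid synthesis had 2 falls among 23, the desaturase gene fat-3 (-1.78 ± 0.25, adjusted p = 0.00523) and the elongase gene elo-6 (-1.51 ± 0.22, adjusted p = 0.00564). They serve the making of long polyunsaturated and of branched fatty acids, in that order.

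Nucleotide and one-carbon metabolism gave 3 falls among 36 genes, 8.33% against 2.73% of all genes, and 1 rise, 2.78% against 2.05%. The dUTP-removing enzyme gene dut-1 (-1.77 on the log2 scale), the S-adenosylmethionine synthetase gene sams-1 (-1.67) and the purine salvage gene hprt-1 (-1.33) fell, while cytidine deaminase gene cdd-2 rose by 0.97. The sams-1 arrays read 6.83, 6.70 and 7.08 in neurons and 9.02, 8.50, 8.31 and 8.33 in the reference, and the dimmest probe set gave -0.71 with no call. Among 124 solute carriers and metal transporters 6 fell, 4.84% against 2.73% of all genes, and 0 rose, against 2.05%. The nucleoside carrier gene ent-2 read 6.09, 6.67 and 5.87 against 8.43, 9.05, 8.84 and 9.49 (6.71-fold, log2 change -2.75 ± 0.28, adjusted p = 0.00194). The amino acid carrier gene slc-36.5 read 5.53, 5.57 and 5.51 against 7.66, 7.60, 7.56 and 7.12 (3.86-fold, log2 change -1.95 ± 0.15, adjusted p = 0.000877), a fall that held in every alternative. The listed gene ttm-2, the potassium and chloride carrier kcc-3 of glia, mct-6 and ent-5 fell, with log2 changes from -1.59 to -1.30.

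Lysosomal genes moved both ways. The cathepsin L gene cpl-1 fell from 10.70, 10.41, 10.46 and 10.04 in the reference to 8.59, 8.34 and 8.07 in neurons (4.2-fold, log2 change -2.07 ± 0.18, adjusted p = 0.0013) and the carboxypeptidase gene ctsa-1.1 fell 5.25-fold, while lmp-2, of the lysosome membrane glycoproteins, rose from 5.49, 5.86, 5.26 and 5.42 to 7.13, 6.42 and 6.96 (2.51-fold, log2 change 1.33 ± 0.21, adjusted p = 0.00703). The dimmest probe sets gave -0.33 for cpl-1 and 0.55 for lmp-2, neither of them called. Those were the calls among 52 lysosome and autophagy genes, and the autophagy genes sqst-1 and lgg-1 had changes of 0.48 and 0.22 without a call. The ABC transporter genes haf-4 and haf-9, which sit on lysosome-related organelles, both fell (-0.94 and -1.18), but both had means under 5 in neurons, near the floor. Of 59 glycan enzymes 2 rose, the sulfatase gene sul-2 (1.85 ± 0.28, adjusted p = 0.00654) and hst-1, a sulfotransferase of heparan sulfate (1.0 ± 0.16, adjusted p = 0.00793), and 2 fell, the mucin-type glycosyltransferase genes gly-6 (-1.28) and gly-11 (-1.36).

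**Figure D3:**
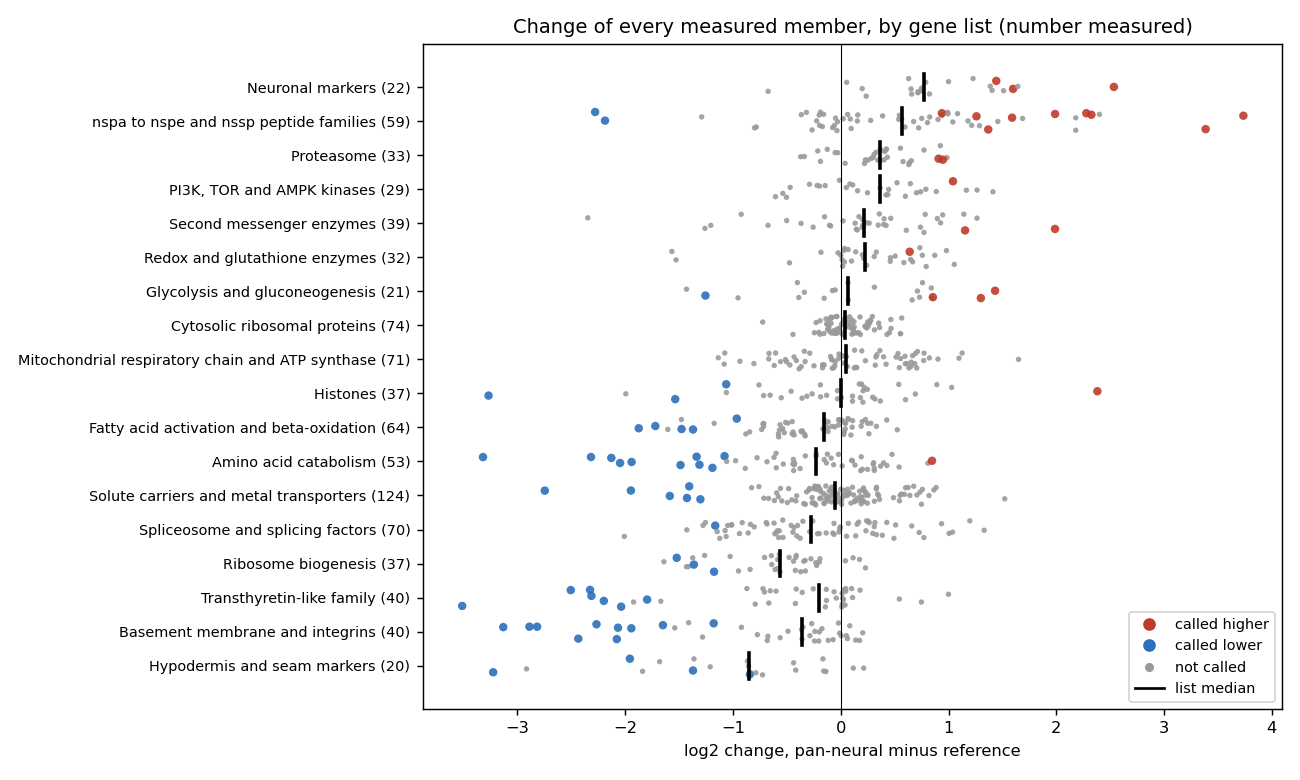
Log2 change of every measured member of 18 gene lists, with called genes in colour and the list median as a black bar. Called lower were 10 of 40 basement membrane and 7 of 40 transthyretin-like genes, against 2.73% of all genes. So were 10 of 53 in the amino acid catabolism list, which was drawn up after the values had been seen. Called higher were 9 of 59 genes of the nssp and nsp peptide families, against 2.05% of all genes.

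Chromatin genes split within families. Histone variant gene his-71, an H3.3 copy that can be laid down outside replication, read 8.40, 8.27 and 8.51 in neurons and 6.75, 6.08, 5.70 and 5.51 in the reference, a 5.21-fold rise (log2 change 2.38 ± 0.28, SE) with adjusted p = 0.00287. Its sister his-72 had a change of 0.20 with no call. Of the linker histone H1 genes 3 were lower: hil-5 read 7.91, 7.72 and 7.65 against 10.24, 10.86, 11.79 and 11.21 (9.64-fold, log2 change -3.27 ± 0.33, adjusted p = 0.00183), hil-3 read 10.44, 10.19 and 10.19 against 11.45, 11.94, 11.97 and 11.87 (2.9-fold, log2 change -1.54 ± 0.15, adjusted p = 0.00184), and hil-2 fell by 1.06. In hil-5 the lowest reference array stood more than 2 log2 units above the highest pan-neural array. Another H1 gene, hil-7, had a change of -0.36 with adjusted p = 0.0666. These were the only calls among 37 histone genes, whose median was 0.0051.

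Among 77 histone methylation and heterochromatin genes 2 rose and 2 fell. The heterochromatin protein 1 gene hpl-1 read 8.56, 8.74 and 8.74 in neurons and 7.71, 7.83, 7.49 and 7.62 in the reference, a 2.02-fold rise (log2 change 1.01 ± 0.12, SE) with adjusted p = 0.00286. Its dimmest probe set gave 0.69 with no call. The zinc finger gene lin-13, whose protein works with HPL-2 at target genes, rose 1.83-fold (adjusted p = 0.00678), though its dimmest probe set gave -0.023. The SET domain genes set-18 and set-30 fell (-1.52 and -0.90). In the condensin, cohesin and dosage compensation list, sdc-2, which brings the dosage compensation complex to the X chromosomes of hermaphrodites, rose from 7.28, 7.27, 6.64 and 7.55 to 8.54, 8.65 and 8.73 (2.75-fold, log2 change 1.46 ± 0.21, adjusted p = 0.00515). Its dimmest probe set gave 0.34 with no call. In the same list the cohesin subunit gene scc-1 (-1.62) and the condensin II gene capg-2 (-1.12) fell. The remaining 25 of 28 were not called. No call was made by limma among 28 NuRD, DRM and synMuv genes or 43 remodelling and acetylation genes, with 12 and 10 at an unadjusted p under 0.05. The remodeller nurf-1 was among the widest of them at -1.31 (adjusted p = 0.0573), with pan-neural array 3 at 9.59 apart from the other two at 11.05 and 11.13.

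Transcription factor genes gave clear single rises. The Ets factor gene ast-1, needed for dopamine neuron fate and axon routing, read 8.49, 8.77 and 8.49 in neurons and 6.71, 6.74, 5.44 and 6.27 in the reference, a 4.91-fold rise (log2 change 2.30 ± 0.31, SE) with adjusted p = 0.00422. The Sox gene sox-4 read 7.81, 7.60 and 7.38 against 5.82, 5.41, 5.13 and 5.02, a 4.76-fold rise (log2 change 2.25 ± 0.21, SE) with adjusted p = 0.00149. Groups were separated by more than 1.5 log2 units in both, but the dimmest probe set of ast-1 gave 1.10 with no call. No other of 32 T-box, Sox and Ets genes was called, and sox-2, at 1.37, had adjusted p = 0.0234. Of 13 forkhead genes, fkh-8, known from ciliated sensory neurons, rose 2.39-fold (adjusted p = 0.00525) and let-381, known from mesoderm and glia, fell from 6.80, 7.38, 7.46 and 7.31 to 5.61, 5.50 and 5.95 (2.93-fold, log2 change -1.55 ± 0.19, adjusted p = 0.0032), with -0.70 and no call by its dimmest probe set.

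Basic leucine zipper genes gave falls and no rise, 3 of 26, where 2.73% of all genes were lower and 2.05% higher. No member was called lower without pan-neural array 1 or without reference array 2. The AP-1 gene jun-1 read 7.78, 8.14 and 7.77 in neurons and 9.54, 9.28, 9.08 and 9.62 in the reference (2.8-fold, log2 change -1.48 ± 0.17, adjusted p = 0.00254), and zip-8 (-1.55) and atf-8 (-1.26) fell as well. The dimmest probe sets gave -0.29 for jun-1 and -0.39 for zip-8, neither of them called. The nuclear receptor gene nhr-43 had one of the sharpest falls of any factor, from 8.24, 8.20, 7.53 and 8.05 to 4.50, 4.44 and 4.48, where the pan-neural arrays sat at the floor (11.6-fold, log2 change -3.53 ± 0.18, adjusted p = 0.000322). That fall held in every alternative. Among 55 further zinc finger and identity genes only ztf-1 was called, at -0.73 with adjusted p = 0.00428. Of 82 genes of the general transcription machinery only gtf-2H2C was called, at 0.88. None of 10 GATA factor genes was called by limma, and 0 had an unadjusted p under 0.05.

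RNA silencing genes held one of the larger rises in the data. The gene sid-5, which encodes a small endosomal protein needed for silencing RNA to spread between cells, read 8.43, 8.21 and 8.71 in neurons and 6.10, 5.57, 6.24 and 4.97 in the reference, a 6.63-fold rise (log2 change 2.73 ± 0.30, SE) with adjusted p = 0.00246. The pan-neural arrays lay close together and well above all reference arrays. The RNA-dependent RNA polymerase gene rrf-1 read 6.86, 7.03 and 6.20 against 4.88, 5.44, 4.88 and 5.24 (3-fold, log2 change 1.59 ± 0.23, adjusted p = 0.00564), but its dimmest probe set gave -0.020. The silencing complex gene vig-1 fell by 1.25 (adjusted p = 0.00393), and the other 56 of 59 RNA interference and microRNA genes were not called.

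Genes of RNA processing gave few calls. Of 70 splicing genes 25 lay above 0 and the median was -0.27, against 0.0523 for all genes, with rnp-6 the only call (-1.16 ± 0.19, adjusted p = 0.00762, and 0.35 by its dimmest probe set). In ribosome biogenesis 4 of 37 genes lay above 0, with a median of -0.56. The nucleolar GTPase gene nog-1 read 8.34, 8.61 and 8.48 in neurons and 9.83, 9.71, 9.64 and 10.19 in the reference (2.57-fold, log2 change -1.36 ± 0.15, adjusted p = 0.00255), and wdr-46 fell as well (-1.18), as did lpd-2, which the list took up by its name and not by a known nucleolar role (-1.52). Fibrillarin gene fib-1 and the pescadillo gene lpd-7 had changes of -0.61 and -1.42 at adjusted p = 0.0342 and 0.0132, outside the threshold. The 74 ribosomal protein genes themselves gave 0 calls by limma, with 6 at an unadjusted p under 0.05, a median of 0.04 and a range from -0.72 to 0.57.

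Translation gave no call elsewhere. Of 47 translation factor genes, 33 tRNA synthetase genes and 79 mitochondrial ribosome and import genes 0 passed in limma, with medians of 0.016, -0.10 and -0.19 and 17, 11 and 33 at an unadjusted p under 0.05. In mRNA decay, smg-8, of the pathway that removes messages with early stop codons, rose by 0.94 (adjusted p = 0.00738) and the exosome subunit gene exos-3 fell from 8.81, 9.19, 9.43 and 9.33 to 7.50, 7.92 and 6.90 (3.37-fold, log2 change -1.75 ± 0.25, adjusted p = 0.0054), the calls among 52 genes.

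The proteasome is a barrel of alpha and beta subunits that degrades ubiquitin-tagged proteins, and 26 of 33 subunit genes lay above 0, against 56.7% of all genes, with a median of 0.36. The beta subunit gene pbs-2 read 10.53, 10.26 and 10.31 in neurons and 9.50, 9.45, 9.55 and 9.34 in the reference (1.88-fold, log2 change 0.91 ± 0.11, adjusted p = 0.0032) and pbs-7 rose 1.93-fold (adjusted p = 0.00678), and no subunit was lower. No subunit was called when pan-neural array 1, 2 or 3 or reference array 2 or 4 was left out. Of 77 ubiquitin and cullin genes, hecw-1, a HECT-type ubiquitin ligase, rose 3.14-fold (adjusted p = 0.00518) and the Skp1-related gene skr-8 fell from 8.18, 8.66, 9.28 and 8.11 to 5.94, 6.40 and 5.86 (5.61-fold, log2 change -2.49 ± 0.29, adjusted p = 0.00299). The dimmest probe set of hecw-1 gave 0.39 with no call. Also called higher were skr-19 and kel-1, at 0.85 and 0.85, whose dimmest probe sets gave -0.077 and -0.18.

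Few chaperone genes passed the test. All 5 calls among 74 chaperone genes were falls, 6.76% against 2.73% of all genes, and the list median was -0.10. The small heat shock gene sip-1 read 5.55, 5.88 and 5.61 in neurons and 8.25, 8.31, 10.06 and 7.99 in the reference (7.83-fold, log2 change -2.97 ± 0.46, adjusted p = 0.00713), with reference array 3 well above the other reference arrays and a change of -1.61 with no call by its dimmest probe set. Falls in the small heat shock genes hsp-12.1, hsp-43 and hsp-17 were 6.02-fold, 3.18-fold and 3.07-fold, and the J-domain gene dnj-16 fell 3.11-fold. Its dimmest probe set gave -0.52 with no call. The changes of hsp-90 and hsp-1 were 0.17 and 0.17 with adjusted p = 0.323 and 0.483. When single arrays were left out, 0 to 1 members were called lower, 0 of them without pan-neural array 1, pan-neural array 3 or reference array 2. No gene of 25 endoplasmic reticulum chaperone genes was called by limma, and 11 had an unadjusted p under 0.05, against 31.1% of all genes.

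Trafficking genes gave single rises. The exocyst gene sec-15, whose protein tethers vesicles to the cell membrane, read 7.20, 7.06 and 7.27 in neurons and 6.08, 5.84, 5.45 and 5.62 in the reference (2.69-fold, log2 change 1.43 ± 0.16, adjusted p = 0.00264), the one call among 54 secretory pathway genes. The clathrin light chain gene clic-1 rose from 9.04, 8.75, 8.64 and 8.74 to 9.65, 9.54 and 9.57 (1.73-fold, log2 change 0.79 ± 0.12, adjusted p = 0.00643), the one call among 69 endosomal genes.

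Motor genes gave rises and falls. The kinesins of sensory cilia klp-20 and osm-3 rose 3.3-fold and 2.94-fold and the dynein light chain gene dylt-2 rose 2.15-fold, while the mitotic kinesins bmk-1 and zen-4 fell 3.14-fold and 3.05-fold, and unc-116, the heavy chain of conventional kinesin, and dhc-1, that of dynein, had changes of -0.26 and 0.24 without a call. The dimmest probe set of klp-20 gave 0.31 with no call. The actin and microtubule binding list gave 2 rises, ttll-11, a tubulin glutamylase (1.44), and unc-69, needed for axon growth (1.30), and 3 falls. The microtubule-binding gene elp-1 read 5.96, 5.75 and 5.40 in neurons and 8.82, 8.74, 8.38 and 8.94 in the reference (8.09-fold, log2 change -3.02 ± 0.18, adjusted p = 0.000488), and that fall held in every alternative. The profilin gene pfn-3 and the gelsolin-like gene gsnl-1 fell (-2.04 and -1.38).

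Basement membrane and attachment genes had the highest share of calls of any list outside the markers. Basement membranes are sheets of laminin, type IV collagen and nidogen that worm muscle and other tissues secrete. Of 40 genes 10 were lower, 25% against 2.73% of all genes, and 0 were higher. The laminin alpha gene epi-1 read 5.23, 5.82 and 4.40 in neurons and 7.98, 8.46, 8.33 and 8.36 in the reference (8.77-fold, log2 change -3.13 ± 0.31, adjusted p = 0.00178). The other laminin alpha gene, lam-3, read 4.59, 4.05 and 4.71 against 6.17, 6.95, 6.67 and 7.77 (5.41-fold, log2 change -2.44 ± 0.36, adjusted p = 0.00566). Both were near the floor on at least 1 pan-neural array. SPARC gene ost-1, whose protein binds collagen, read 7.38, 7.41 and 7.16 against 10.28, 10.03, 10.20 and 10.03 (7.05-fold, log2 change -2.82 ± 0.12, adjusted p = 0.000126), an even fall that held in every alternative. The type IV collagen genes emb-9 and let-2 fell 4.22-fold and 3.85-fold, the latter held in every alternative, the nidogen gene nid-1 4.81-fold, and the skin attachment genes mua-3 and mup-4 7.41-fold and 4.19-fold. The dimmest probe sets of emb-9, mua-3 and lam-3 gave changes of -0.57, -0.41 and -0.21, none of them called. Protease inhibitor gene cri-2 and the protease gene adt-2 completed the calls. Integrin beta gene pat-3 and the syndecan gene sdn-1, receptors that neurons also carry, had changes of -0.01 and -0.36 without a call. Between 3 and 9 members were called lower when single arrays were left out, fewest without pan-neural array 1, pan-neural array 2 or reference array 2. Summed markers of hypodermis, body wall muscle and of coelomocytes and glia were lower in the same samples, as given above, and their part was not tested.

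The genes cdh-3, a cadherin of epithelia, and gpr-2, of spindle positioning, were the calls among 36 polarity and junction genes, at -3.03 and -1.85. None of 33 cell death and engulfment genes was called by limma, and 12 had an unadjusted p under 0.05.

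Secreted small protein families showed opposite patterns. Transthyretin-like proteins, a family of secreted nematode proteins, had 7 of 40 genes lower, 17.5% against 2.73% of all genes, and 0 higher. The gene ttr-50 read 5.16, 5.99 and 4.50 in neurons and 8.55, 8.39, 9.71 and 8.27 in the reference (11.4-fold, log2 change -3.51 ± 0.44, adjusted p = 0.00335), ttr-6 read 6.54, 6.62 and 6.75 against 9.41, 9.04, 8.87 and 8.48 (4.97-fold, log2 change -2.31 ± 0.21, adjusted p = 0.00131), and ttr-16 and ttr-17 fell 5.68-fold and 5.02-fold. Between 1 and 8 members were called lower when single arrays were left out, fewest without pan-neural array 1. The nssp and nsp families of short secreted peptides gave 9 rises among 59 genes, 15.3% against 2.05% of all genes. They also gave 2 falls, 3.39% against 2.73%, and their median was 0.56. The gene nssp-44 read 9.98, 9.56 and 10.54 against 7.46, 6.48, 7.14 and 5.49 (10.4-fold, log2 change 3.39 ± 0.46, adjusted p = 0.00455), nssp-63 read 11.44, 11.69 and 10.70 against 9.41, 8.80, 9.18 and 8.41 (5.01-fold), and nspe-4 rose 4.85-fold, while its family member nspe-7 fell 4.56-fold and nspb-10 4.86-fold. No rise in these peptide families was called without pan-neural array 1 or without reference array 2. Reads of one member may include its close copies, since probes of such families can cross-hybridize.

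F-box genes, a large family whose proteins bring substrates to ubiquitin ligases, were mostly too dim to judge, with 183 of 310 under 5 in both groups. They gave 3 rises, 0.97% against 2.05% of all genes, and 5 falls, 1.61% against 2.73%. The gene fbxc-40 read 5.20, 5.07 and 5.24 in neurons and 7.02, 7.16, 7.21 and 7.48 in the reference (4.14-fold, log2 change -2.05 ± 0.13, adjusted p = 0.000561), a fall that held in every alternative, and fbxa-140 fell 8.62-fold. Of 105 MATH and BTB genes, of which 80 were under that level in both groups, 0 were called by limma and 9 had an unadjusted p under 0.05.

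Genes known only by a sequence name made up 6718 of the genes. Of these 123 were higher, 1.83%, and 155 lower, 2.31%, near the shares over all genes. Among the rises, F55A4.3 on chromosome X read 6.66, 6.54 and 6.85 in neurons and 4.14, 3.86, 3.70 and 3.65 in the reference, where it sat at the floor (7.19-fold, log2 change 2.85 ± 0.15, adjusted p = 0.000322), and the rise held in every alternative. C53C7.5 on X, annotated as a pseudogene, read 9.0, 7.76 and 8.63 against 6.34, 5.77, 5.64 and 5.13 (6.68-fold), and C33A12.4 on IV read 9.46, 9.26 and 10.16 against 7.58, 6.38, 7.18 and 5.83 (7.39-fold). C29F4.3 read 8.54, 8.01 and 7.74 against 6.32, 5.48, 5.51 and 5.52 and C35D10.12 read 8.92, 8.80 and 8.72 against 7.17, 6.27, 6.16 and 6.31, with reference array 1 apart from the other reference arrays and toward the neurons in both. R10H10.4 rose 4.96-fold from a reference near the floor, and C35E7.11, Y43F8C.11, M04D8.7, F14D7.8, T05C12.8, W02G9.4 and E02A10.3 rose by between 2.04 and 2.41. The dimmest probe sets gave 0.37 for E02A10.3 and 0.29 for W02G9.4, neither of them called. W02G9.4 was the one of these with a negative larval change, -0.62.

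Among the falls of unnamed genes the deepest were T28B11.1 (53.9-fold), T14B4.19 (25.8-fold), F46F11.7 (25.2-fold) and C25F9.2 (20.6-fold), though the dimmest probe set of T28B11.1 gave -0.89 with no call. The falls of T14B4.19 and F46F11.7 held in every alternative. Of those with smaller falls, C01G6.3 on chromosome II was even across arrays and read 6.75, 6.84 and 6.81 in neurons and 9.32, 9.44, 9.97 and 9.54 in the reference (6.81-fold, log2 change -2.77 ± 0.16, adjusted p = 0.000488), and the fall held in every alternative. F26E4.5 read 6.82, 5.98 and 5.71 against 8.71, 10.59, 10.67 and 10.56 (15.6-fold, log2 change -3.96 ± 0.51, adjusted p = 0.00368), with reference array 1 nearly 2 log2 units under the other reference arrays. T03F1.6 read 7.60, 6.99 and 6.15 against 9.83, 10.34, 10.14 and 10.24 (9.34-fold). M79.2 read 4.32, 4.35 and 4.07 in neurons, near the floor, against 7.91, 7.66, 6.76 and 6.98 in the reference, and its dimmest probe set gave -1.41 with no call. F21C10.7 read 4.60, 4.66 and 4.22 against 6.51, 8.45, 7.11 and 8.30, with reference array 1 the lowest of the reference. F59C12.4 stayed well above the floor in both groups and fell 5.89-fold, from 12.30, 13.06, 13.29 and 12.79 to 10.48, 9.77 and 10.66. F54D5.7, Y43F8B.9, F41C3.2 and W04A8.4 fell, with log2 changes from -3.47 to -2.49. Adjusted p over the falls of this kind ran from 9.64e-05 to 0.00598.

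**Figure D4:**
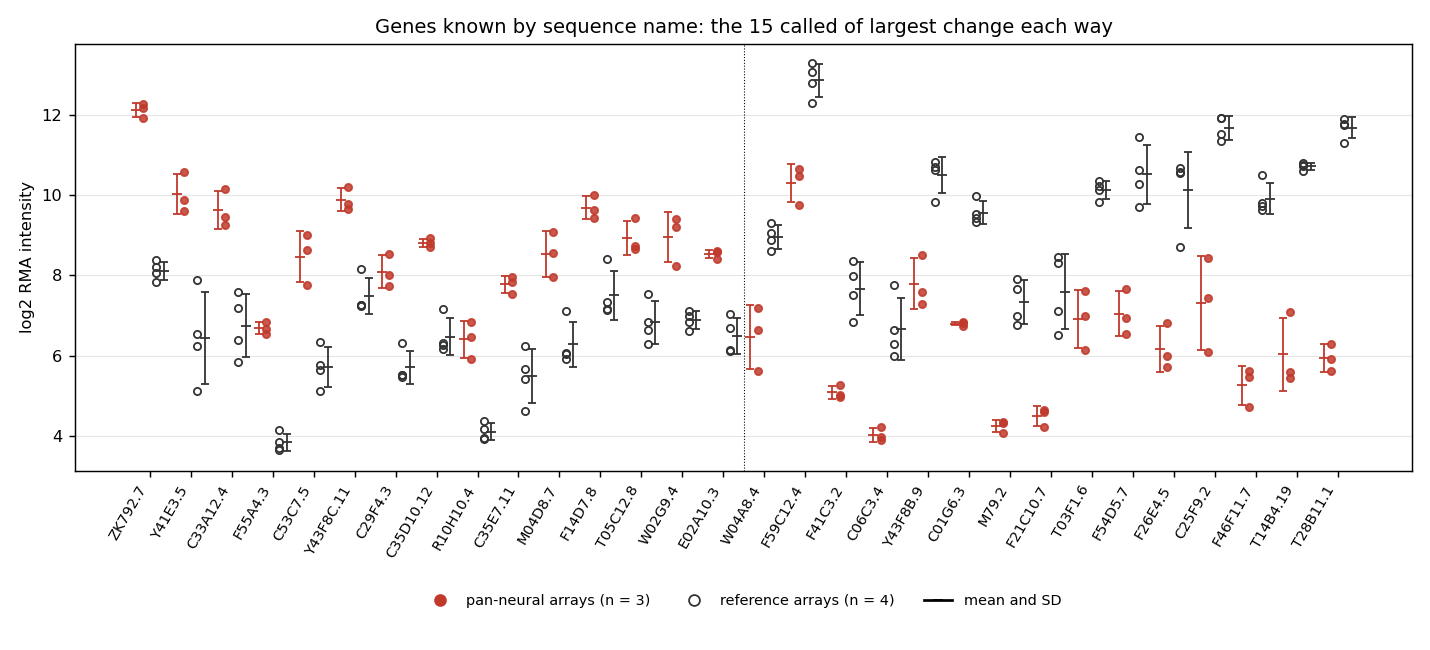
Log2 intensity on each array of the 15 called genes with only a sequence name of largest change in each direction, pan-neural arrays filled and reference arrays open, with group mean and standard deviation. Groups do not overlap in any of them, as in all 819 called genes and in 29.4% of all genes. The reference arrays spread more than the pan-neural arrays in genes such as F26E4.5 and F21C10.7.

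Cuticle genes, left aside above, included some of the deepest falls. The collagen genes col-121, dpy-14 and dpy-17 fell 11.6-fold (held in every alternative), 17.9-fold and 9.35-fold, and cutl-25, a cuticlin-like gene, fell 9.11-fold. Values of dpy-14 were 7.38, 7.38 and 4.78 in neurons and 11.26, 10.32, 10.94 and 10.16 in the reference, so pan-neural array 3 lay well under the others, as it did in dpy-17 (8.45, 8.16 and 6.68). That array also had the lowest summed hypodermal markers, but dpy-17 is itself a member of that list, so the sum is not separate evidence for dpy-17. Falls of other kinds included the saposin-like gene spp-15, at 3.56, 4.08 and 3.78 against 6.92, 7.50, 7.63 and 6.97 (10.9-fold, log2 change -3.45 ± 0.22, adjusted p = 0.000561, held in every alternative), and test-1, a testican-like gene, at -3.28.

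Called genes were spread over the chromosomes. The share of genes called higher was 3.02% on X, against 1.54% on I, 2.06% on II, 1.91% on III, 2.1% on IV and 1.81% on V. Shares called lower ran from 1.78% on V to 3.4% on I, and X had 3.06%, near its share called higher. Several of the genes described above lie on X. Among the rises these include sox-4, his-71, sid-5, sdc-2, pkc-2, jkk-1, ksr-1 and sec-15, and among the falls sams-1, M79.2 and F59C12.4. These shares are given as a description with no test.

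Larval neurons, profiled from whole L2 larvae by pulling down RNA with a tagged poly(A)-binding protein (3 arrays against 5 mock pull-downs), gave a second view of the same genes. The tagged protein came from transgenic line SD1241 (gaIs153), under the F25B3.3 promoter, and the mock pull-downs from wild-type N2 larvae. By their titles some mock pull-downs carry the set number of the embryonic arrays and the others that of the larval pan-neural arrays. Larval changes therefore cross these labelled sets. Over all genes 1165 were higher (6.81%) and 603 lower (3.52%) in larval neurons. Of the 351 genes higher in embryonic neurons 189 were also higher in larval neurons (53.8% of the embryonic and 16.2% of the larval set) and 3 were lower. Of the 468 lower in embryonic neurons 98 were also lower and 7 higher in larval neurons. The difference between embryonic and larval change, tested in one fit over 15 arrays, was called for 865 genes (5.05%), with the embryonic change above the larval one in 1.88% of all genes and below it in 3.18%. Among the embryonic rises 74 were above and 8 below their larval change. Those rises were picked by embryonic values that also enter the difference, so these counts are descriptions only. Method, tissue state and reference differ between the sets along with age and cannot be told apart.

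Embryonic rises that exceeded the larval change by that test, with no call in larvae, included sid-5 (larval change 0.14), his-71 (0.42), sox-4 (0.33), ragc-1 (-0.25), sec-15 (0.06), sdc-2 (-0.30), rrf-1 (-0.81), sod-1 (-0.44) and lmp-2 (-0.96). The linker histones hil-3 and hil-2, at -1.54 and -1.06 in embryonic neurons, had larval changes of 0.27 and 0.15, and jun-1 and let-381 had 0.22 and 0.24, each of these falls differing from the larval value by the same test. The elp-1 change of -3.02 stood against 0.51 in larvae. In jnk-1, jkk-1, pkc-2, scd-2, ast-1, tdc-1 and pdl-1 both changes were rises and no difference between them was called, which does not show that they were equal.

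**Figure D5:**
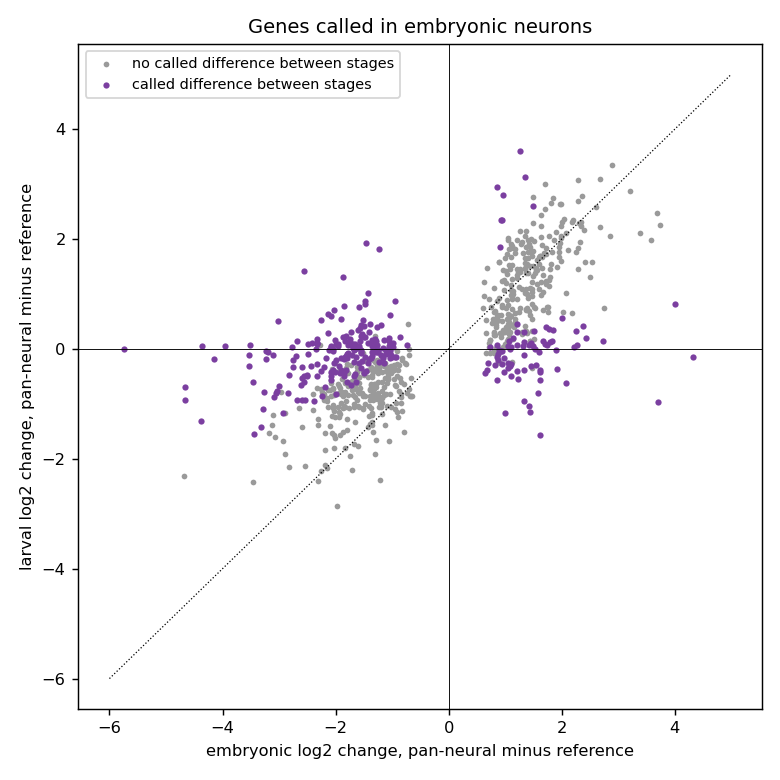
Each point is one of the 819 genes called in embryonic neurons, placed by its embryonic log2 change (horizontal) and its larval log2 change (vertical), in colour where the difference between both was called. Coloured points among the rises lie mostly near a larval change of 0, and 199 of the falls differ from their larval change.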

How the data were processed

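Arrays were read from the table of normalized values that the authors deposited, with 24 arrays in 3 sets by their titles and 0 columns left unmapped. Per the study's methods the deposited intensity values were brought to a common average signal and then passed through RMA (robust multi-array analysis), with no version stated. Only log2 was taken from there. The 77 control probe sets were left out, and each array's signal limits precision, since arrays carry no read depth. Gene names came from the platform annotation, updated through a RefSeq gene table. Of the rest 887 probe sets named several genes and 895 none, and neither kind was used for genes.

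Groups followed the sample titles. The embryonic arrays were fitted on their own with limma 3.58.1 in R 4.3.3 (lmFit, eBayes), with p adjusted by Benjamini and Hochberg's method across the 22548 probe sets, in place of Significance Analysis of Microarrays (SAM), the study's own tool, at its fold and false discovery thresholds. The embryonic and larval changes were compared in a joint fit over 15 arrays. The fit was tested on simulated data. A group mean log2 intensity under 5 was called low signal. Genes to name were drawn from the 20 called genes of largest change each way, up to 4 called each way and up to 2 uncalled bright members per list, 15 sequence-name genes each way and the markers, and not all of them are described. Chosen after their values were seen were T22B3.3, magi-1, arl-3, rab-3, hsp-17, adt-2, cri-2, emb-9, let-2, mup-4, nid-1, cpt-6, ent-5, mct-6 and the amino acid catabolism list. All other lists and members were chosen with earlier results of these data known. Alternatives changed the normalization, signal filter, variance model, thresholds, probe set, pairing, day block and arrays kept. No sequence of the described genes was used.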

Additional observations from a re-analysis of the deposited data

Results flagged for a closer look

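Among the 197 genes named, 14 had 1 reference array far from the others, where chance alone would set apart about 1 group in 20. Reference array 1 was the one apart in 10 of them. It read above the other reference arrays in C29F4.3 (6.32 against 5.48 to 5.52), C35D10.12 (7.17 against 6.16 to 6.31), F14D7.8 (8.41 against 7.14 to 7.33), M04D8.7 (7.10 against 5.92 to 6.06), Y43F8C.11 (8.15 against 7.23 to 7.27), elo-6 (7.97 against 7.19 to 7.29) and nspe-4 (6.47 against 5.21 to 5.36). It read below them in F26E4.5 (8.71 against 10.56 to 10.67), capg-2 (6.39 against 6.65 to 6.68) and cutl-25 (7.31 against 7.99 to 8.12). Reference array 3 stood apart in hsp-1 (11.83 against 12.08 to 12.08), klp-20 (4.59 against 5.73 to 5.77) and sip-1 (10.06 against 7.99 to 8.31), and reference array 4 in vig-1 (10.09 against 9.57 to 9.60). All are log2 intensities.

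Embryonic and larval changes differed by the joint fit (adjusted p under 0.01) for 70 of the 197 genes named, against 5.05% of all genes. Genes were named mainly by their embryonic values, which also enter this difference, so the count is a description only. The difference, embryonic minus larval log2 change, was positive for 18: dpy-20 4.46, ZK792.7 3.19, W02G9.4 2.68, sid-5 2.59, rrf-1 2.39, lmp-2 2.29, spex-2 2.23, nspe-4 2.20, his-71 1.96, sox-4 1.92, sdc-2 1.76, sec-15 1.37, ragc-1 1.29, pbs-7 1.22, cdd-2 1.14, sod-1 1.07, nkat-3 0.98 and gtf-2H2C 0.97. It was negative for 52. Among those with only a sequence name it was -5.75 for T28B11.1, -4.43 for C25F9.2, -3.95 for F46F11.7, -4.02 for F26E4.5, -3.98 for F59C12.4, -3.18 for T03F1.6, -2.87 for F54D5.7, -2.81 for C01G6.3, -2.56 for Y43F8B.9, -2.40 for W04A8.4 and -2.25 for F41C3.2. For genes of cuticle, matrix, attachment and secreted proteins it was -3.97 for dpy-14, -3.59 for ttr-50, -3.43 for col-121, -3.14 for cutl-25, -3.04 for dpy-17, -2.34 for ost-1, -2.26 for cdh-3, -2.19 for test-1, -2.12 for lam-3, -2.02 for ttr-16, -1.89 for spp-15 and -1.87 for nid-1. For metabolic enzymes and carriers it was -2.55 for ent-2, -2.29 for acdh-2, -1.90 for upb-1, -1.40 for ent-5, -1.34 for gln-5, -1.22 for mct-6, -1.18 for sams-1 and -1.06 for acs-16. For chromatin proteins and transcription factors it was -3.23 for nhr-43, -2.48 for hil-5, -1.81 for hil-3, -1.80 for let-381, -1.71 for jun-1, -1.48 for zip-8, -1.21 for hil-2 and -0.80 for ztf-1. For the remaining genes, of RNA, protein folding and turnover, division and the cytoskeleton it was -3.52 for elp-1, -3.0 for fbxa-140, -2.58 for skr-8, -2.02 for fbxc-40, -1.87 for exos-3, -1.78 for lpd-7, -1.67 for dnj-16, -1.64 for hsp-17, -1.47 for nog-1, -1.41 for gpr-2, -1.23 for vig-1, -1.19 for bmk-1 and -1.18 for rnp-6. Collection method, culture and reference differ between both sets along with age and cannot be told apart.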

How the results depend on the processing

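Against 351 genes higher and 468 lower, array weights gave 1518 and 1453, an adjusted p under 0.05 gave 1146 and 1246, and hybridization day as a random block gave 90 and 162. With single arrays left out the counts ran from 14 to 457 higher and from 64 to 581 lower. Leaving out pan-neural array 2 gave 71 and 121, pan-neural array 3 gave 115 and 134, reference array 3 gave 121 and 219 and reference array 4 gave 88 and 223, while without reference array 1 they were 457 and 581. The cause was not tested beyond the loss of an array. Median centring, quantile normalization, a low signal filter, an intensity trend, no minimum fold and the dimmest probe set kept both counts within 1.5 times. Of 57 list and direction pairs with a call, 51 fell to 0 without at least 1 array.

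The replicate numbers are shared by both groups but name no shared culture, and deviations of same-numbered arrays correlated at 0.07, 0.15 and 0.32, so pairing was not established, and 2 of 3 numbers correlated best with their own. With a replicate block the counts were 127 higher and 193 lower.

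The 865 genes whose embryonic and larval changes differed became 2109 at an adjusted p under 0.05, and 459 to 1064 with single arrays left out, lowest without larval pan-neural array 3 and 571 without embryonic reference array 2. Read from the dimmest probe set, the changes of 6 genes named above turned sign: kel-1 -0.18, lin-10 -0.16, lin-13 -0.023, rnp-6 0.35, rrf-1 -0.020 and skr-19 -0.077. No other direction of a called gene named here turned, but 40 lost the call. Those not given above were acdh-2 (-0.99), adt-2 (-0.71), aex-3 (0.85), F21C10.7 (-3.19), gly-6 (-0.68), haf-4 (-0.30), hst-1 (0.48), mct-6 (-0.68), nkat-3 (0.50), pbs-7 (0.78), ric-4 (1.04), vig-1 (-0.82) and zen-4 (-0.81).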

Other observations

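Gene families outside the main comparisons differed in how many members passed in larval neurons. In the nssp and nsp peptide families 36 of 59 were higher in larval neurons, with a median larval change of 1.25, against 9 of 59 and a median of 0.56 in embryonic neurons. In the transthyretin-like family 17 of 40 were lower in larval neurons, with a median of -0.71. Of 33 Rab, Arf and Arl genes 10 were higher in larval neurons, and of 22 neuronal markers 15 were. The proteasome list had a larval median of -0.19 with no call, and of its members pbs-7 was among 2 whose embryonic change exceeded the larval one. Ribosome biogenesis genes had a larval median of -0.20 with no call. Over all genes 6.81% were higher and 3.52% lower in larval neurons, and no list was tested as a set.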
